A study of Ciona robusta with 6 samples.

Results

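The 69 genes were expressed in anterior neural plate (ANP) cells of *Ciona robusta* embryos and were left at far lower levels in ANP cells that misexpressed *Lhx3/4*. They were chosen by their measured levels, out of 16526 gene models in the count tables. A gene was taken if its lowest level in the 3 control libraries was at least 2 CPM (reads of the gene per 1000000 reads in genes) and its highest level in the 3 *Lhx3/4* libraries was at least 5-fold below that lowest control level. Of 10150 genes that met the first limit, 76 also met the second. Set aside by name, whatever their values, were 8 gene models, 7 of which were among the 76, so that 69 remained. The genes set aside include *Six3/6*, *Onecut*, *Tyrp-1* and the homolog of *MSX2*.

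The study asked whether *Lhx3/4*, a LIM homeobox factor of the cardiopharyngeal progenitor (CPP) lineage, can redirect the response of another lineage to FGF signaling. Wild-type embryos raised at 18°C were electroporated with plasmids, dissociated, and sorted by FACS for GFP+ cells, and polyA RNA of these cells was sequenced. The *Lhx3/4* group (3 libraries) carried *Dmrt>GFP* and *Dmrt>Lhx3/4*, and the control group (3 libraries) carried *Dmrt>GFP* alone. In both groups the *Dmrt* enhancer drove expression in the ANP lineage, and both were sorted on the same GFP signal. How many of the sorted cells had taken up *Dmrt>Lhx3/4* was not measured. The labels number the libraries of each group as biological replicates 1 to 3, without saying which embryos or electroporations they came from.

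The ANP is the anterior part of the ascidian neural plate. Its cells are induced by FGF through the MAPK pathway and Ets factors, and they form the palps, anterior brain structures and pigmented cells of the larva. *Lhx3/4* is normally active in other lineages, among them the CPP lineage, which gives rise to the heart and to pharyngeal muscle.

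The *Lhx3/4* libraries held 52.6 to 71.2 M reads in genes and the control libraries 58.3 to 68.9 M. *Lhx3/4* itself (KH.S215.4) was at 553 to 681 CPM in the *Lhx3/4* libraries, against 29.2 to 51.3 CPM in the controls, and reads of the transgene were not told apart from those of the endogenous gene. The ANP regulators that were set aside were expressed in the controls. *Six3/6* was at 34.5 to 58.6 CPM in *Lhx3/4* libraries and 378 to 461 CPM in controls, and *Onecut* at 17.4 to 24.14 CPM and 363 to 473 CPM. The homolog of *MSX2* was at 14.9 to 25.4 CPM in *Lhx3/4* libraries and 233 to 341 CPM in controls. The CPP regulators *Foxf*, *Irxb* and *Hand.r* had higher values in *Lhx3/4* libraries (151.8 to 180, 57.3 to 108 and 5.55 to 12.1 CPM) than in controls (21.2 to 53.5, 13.1 to 28.8 and 0.618 to 3.19 CPM). These are the CPP targets that the paper names as raised. It reports others as unchanged (*Irxa*, *Soxh* and *Gsc*) or lowered (*Elk1*, *Foxp* and *SoxC*), and describes the CPP program as only partly activated. The motor ganglion genes *Nkx6* and *Vsx* were at 8.13 to 24.2 and 1.20 to 1.66 CPM in *Lhx3/4* libraries, against 1.49 to 3.07 and 0 to 0.103 CPM in controls. The early mesoderm and muscle genes paired with *TBX6* (KH.S654.1 and KH.S654.2) were at 0 to 0.190 CPM in *Lhx3/4* libraries and 0.240 to 1.85 CPM in controls. The part of other cell types in the levels below was not tested.

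The 69 genes lay at the low end of the distribution of all genes. For each gene the highest *Lhx3/4* CPM was divided by the lowest control CPM, so that a value of 1 means that the groups touch and 0.2 is the limit of the rule. Among the 10150 genes, 73 lay between 0.2 and 0.333, 129 between 0.333 and 0.5 and 697 between 0.5 and 1. Of the 69 genes, 46 lay between 0.1 and 0.2, 13 between 0.05 and 0.1, 6 between 0.01 and 0.05, and 4 at 0.01 or below. The same limits applied in the other direction, with all *Lhx3/4* libraries at least 5-fold above all controls, were met by 60 of 10157 genes.

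**Figure D1:**
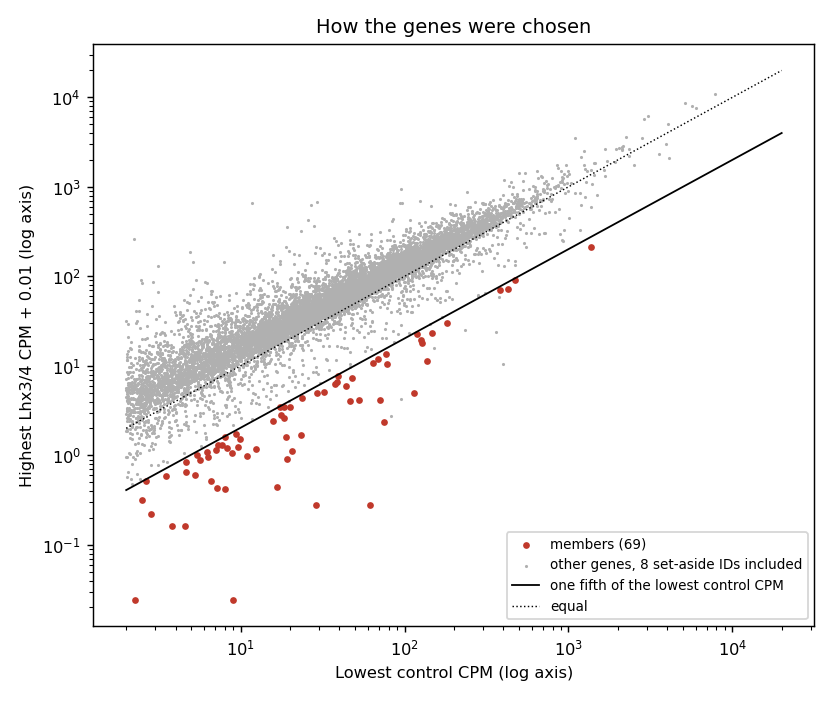
Highest CPM among the 3 *Lhx3/4* libraries (vertical axis, with 0.01 CPM added, log scale) against the lowest CPM among the 3 control libraries (horizontal axis, log scale) for 10150 genes. The 69 members are the large points on or under the solid line, which marks a level 5-fold below the lowest control CPM. The dotted line marks equal values, and 2 members lie far below the rest, with 1 or 2 reads in total in *Lhx3/4* libraries.

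On the log2 scale of the edgeR fit, *Lhx3/4* over control, the fold changes of the 69 genes had a median of -3.75 and ran from -11.22 to -2.64, where the median of all 13641 genes with enough reads for the fit was 0.01. These values were used to choose the genes, so they are given as a description and without a test. With edgeR's quasi-likelihood test 67 of the 69 genes were called lower, as were 2.92% of all genes tested. With the replicate number as a block in the same fit all 69 were called lower, against 6.94% of all genes, and with DESeq2 all 69, against 5.47% of all genes. Because the same contrast chose the genes, nothing is read from these counts. The genes not called by edgeR without the block were KH.S406.18, with 1, 35 and 0 reads in the *Lhx3/4* libraries and 415 to 627 in the controls, and KH.L10.1, with 11, 0 and 14 reads in the *Lhx3/4* libraries and 169 to 299 in the controls.

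The levels of the 69 genes were also summed within each library. Their summed level was 505, 651 and 653 CPM in *Lhx3/4* replicates 1, 2 and 3, against 5436, 6646 and 6015 CPM in control replicates 1, 2 and 3. That all *Lhx3/4* sums were at least 5-fold below all control sums follows from the rule, and the means were 603 ± 85.1 CPM in *Lhx3/4* libraries and 6032 ± 605 CPM in controls (SD, n = 3 each). In bulk samples such as these, fewer cells expressing a gene and less RNA of it per cell cannot be told apart. One gene, the homolog of *UXS1*, gave 26.4% of the summed control level and the 5 highest genes gave 53.6%. Without the *UXS1* homolog the sums averaged 415 CPM in *Lhx3/4* libraries and 4441 CPM in controls, or 10.7-fold lower.

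**Figure D2:**
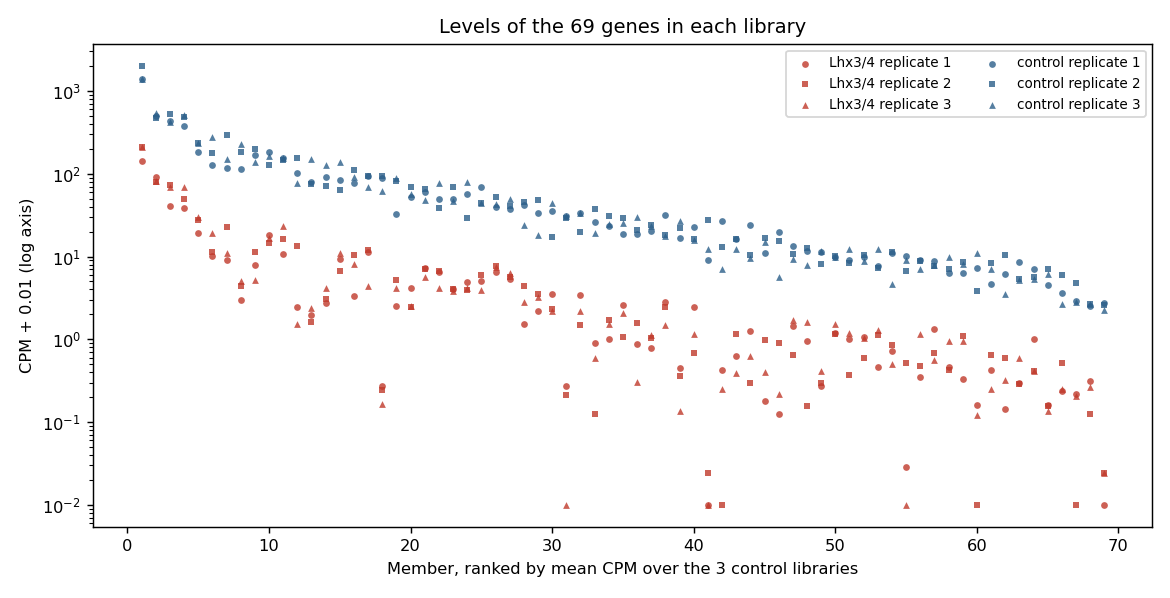
CPM of each of the 69 genes in each of the 6 libraries (vertical axis, with 0.01 CPM added, log scale), ranked along the horizontal axis by mean CPM over the 3 controls. Symbols mark the replicate number, red the *Lhx3/4* libraries and blue the controls. The groups do not overlap for any gene, as the rule requires, and points at the floor of 0.01 are libraries with no read.

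The control levels of the genes ran from 2.53 to 1591 CPM (means of 3 libraries), with a median of 24.6 CPM, which was below the 44.2 CPM of all 10150 genes. In 13 genes the control mean was 100 CPM or more, in 36 it was 10 to 100 CPM and in 20 it was under 10 CPM. What was left in *Lhx3/4* cells had a median of 7.79% of the control mean. The ratio of group means, control over *Lhx3/4*, was under 10 in 17 genes, 10 to 20 in 30, 20 to 100 in 18 and at least 100 in 4. The median ratio was 9.64 among the 13 genes of highest control level, 13.4 among the 36 of middle level and 12.8 among the 20 of lowest level.

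A homolog name is given here for 7 of the 69 genes. They are paired in the study's material with a homolog under a vertebrate name, and these fall into secreted proteins and sugar metabolism, receptors, a cytoskeletal protein and a transcription factor. The roles given here are those known from vertebrates. UXS1 makes UDP-xylose, the sugar donor that starts the glycosaminoglycan chains of proteoglycans. Its homolog (KH.C7.154) was the highest of the 69 genes in the controls. It was at 142.08, 209 and 212 CPM in the *Lhx3/4* libraries, against 1378, 2007 and 1388 CPM in the controls. The highest *Lhx3/4* library was at 0.154 of the lowest control, and the log2 fold change was -3.14 (standard error 0.25). SBSPON is a secreted protein with somatomedin B and thrombospondin domains. Its homolog (KH.C10.368) was at 38.1, 50.2 and 69.9 CPM in the *Lhx3/4* libraries, against 382, 485 and 506 CPM in the controls (log2 fold change -3.18, standard error 0.27). In both groups replicate 1 was the lowest and replicate 3 the highest. CRISPLD2 is a secreted protein with a CAP domain, and its homolog (KH.C6.28) is also the only 1 of the 69 genes on the study's list of neural tube closure genes. The *CRISPLD2* homolog was at 0.931, 0.145 and 1.59 CPM in the *Lhx3/4* libraries, against 11.8, 12.7 and 7.96 CPM in the controls. The *Lhx3/4* libraries of this gene spread by 10.97-fold, the widest spread of any member that could be assessed, and *Lhx3/4* replicate 2 was the low one.

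Receptors made up 2 of the paired genes. S1PR1 is a G protein-coupled receptor for sphingosine-1-phosphate, a lipid that guides cell migration and adhesion. The *S1PR1* homolog (KH.C5.197) was at 7.35, 7.10 and 5.66 CPM in the *Lhx3/4* libraries, against 59.6, 65.9 and 47.6 CPM in the controls. Libraries agreed closely within both groups, and the means differed 8.61-fold. LGR4 is a receptor for R-spondins, which strengthen Wnt signaling. The *LGR4* homolog (KH.C10.613) was a gene of low level, with 0.703, 0.839 and 0.492 CPM in the *Lhx3/4* libraries and 11.0, 11.4 and 4.64 CPM in the controls. Control replicate 3 was well below the other two controls, and the means differed 13.3-fold. GAS2, a protein that links actin filaments and microtubules, was the only paired cytoskeletal gene. The *GAS2* homolog (KH.L152.12) was at 0.342, 0.463 and 1.15 CPM in the *Lhx3/4* libraries, against 9.14, 8.88 and 7.08 CPM in the controls. *Lhx3/4* replicate 3 was the highest library of its group and control replicate 3 the lowest of its own.

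On the study's list of annotated transcription factors stand 9 of the 69 genes. That is 13.04% of the members, where listed factors were 2.33% of the 10150 genes of sufficient control level and 2.16% of all genes tested. With the genes that were set aside counted back in, 14 of 76 (18.4%) were listed factors. Among the 23 members that were at least 10-fold below the lowest control in every *Lhx3/4* library, 1 was a listed factor (4.35%). The other 8 listed factors lay between the 5-fold and the 10-fold limit. At the 10-fold limit the genes set aside were not counted back in. Of the 7 genes set aside that met the 5-fold limit, 5 were listed factors. The share of 4.35% is therefore not to be set against the 18.4%. The ratio of means had a median of 12.6 in the 9 factors and 13.03 in the other members.

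PTF1A is a bHLH factor that in vertebrates directs neuron subtype choice and pancreas formation, and its homolog was the factor with the least expression left. The *PTF1A* homolog (KH.L116.39) was at 0.266, 0.231 and 0.154 CPM in the *Lhx3/4* libraries, against 88.7, 92.8 and 61.6 CPM in the controls. That is 14, 16 and 11 reads against 5169, 5814 and 4248 reads. All 3 *Lhx3/4* libraries were low to a similar degree, and the log2 fold change was -8.61 (standard error 0.32), or 373-fold by the means. The next factor by the ratio of means, KH.L142.14, reached 33.7-fold.

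The other listed factors described here carry no homolog name that the sources give without conflict, so they are named by gene model and no role is given. KH.L119.26 was the factor of highest control level, with 10.2, 11.2 and 19.5 CPM in the *Lhx3/4* libraries and 127, 179 and 274 CPM in the controls. Both groups had the same order of replicates, with replicate 3 about 2-fold above replicate 1. KH.C3.553 was at 10.8, 16.3 and 23.5 CPM in the *Lhx3/4* libraries, against 154, 147 and 155 CPM in the controls, which were the most even controls of the 9 factors. KH.S816.2 was at 4.98, 3.91 and 4.20 CPM in the *Lhx3/4* libraries and 56.5, 29.3 and 78.7 CPM in the controls. In that gene the controls varied more than the *Lhx3/4* libraries did, by 2.69-fold against 1.27-fold. KH.L59.12 was at 3.48, 2.34 and 2.19 CPM in the *Lhx3/4* libraries and 35.7, 17.4 and 44.3 CPM in the controls. KH.C2.560 was at 2.62, 1.07 and 2.09 CPM in the *Lhx3/4* libraries and 18.5, 29.5 and 25.7 CPM in the controls. KH.L142.14 stood out for uneven libraries in both groups, at 0.114, 0.882 and 0.211 CPM in the *Lhx3/4* libraries and 19.7, 15.3 and 5.63 CPM in the controls. KH.C3.843 was the factor of lowest control level, at 0.988, 0.362 and 1.19 CPM in the *Lhx3/4* libraries and 8.99, 8.26 and 12.5 CPM in the controls. Control replicate 3 was the highest control in 6 of the 9 factors.

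**Figure D3:**
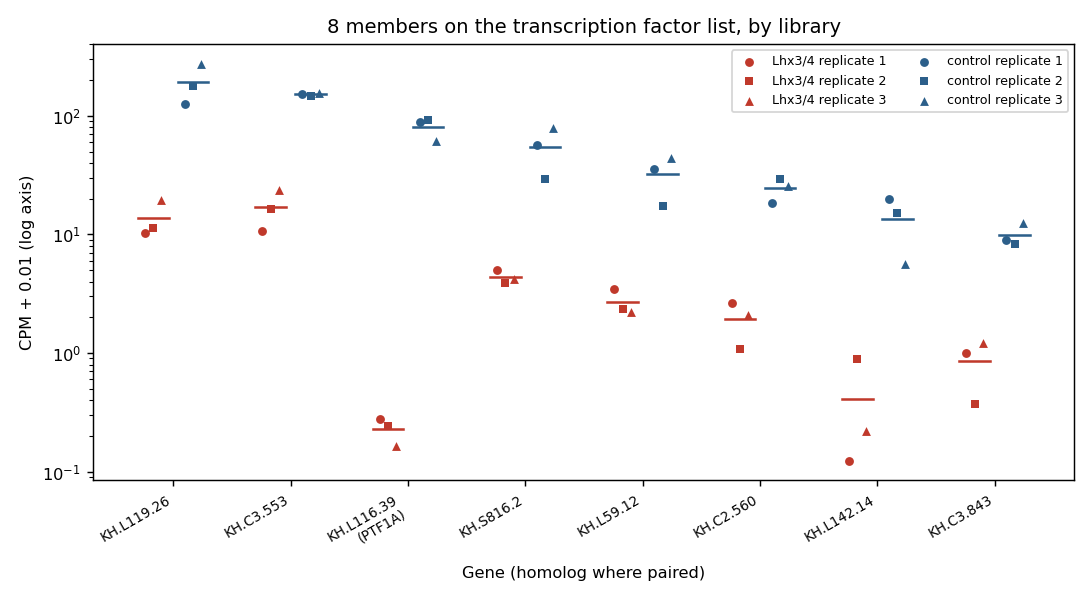
CPM of 8 of the 9 members on the transcription factor list in each library (vertical axis, with 0.01 CPM added, log scale), with *Lhx3/4* libraries to the left of controls for each gene and bars at the group means. The *PTF1A* homolog (KH.L116.39) is the only one of these with all *Lhx3/4* libraries below 0.3 CPM, against control levels of 61.6 to 92.8 CPM.

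Most of the strongly expressed members carry no homolog name. KH.C2.994 was at 90.1, 79.6 and 82.8 CPM in the *Lhx3/4* libraries, against 502, 470 and 539 CPM in the controls. It had the most expression left of the 69 genes, 16.7% of the control mean, and its libraries were among the most even (log2 fold change -2.64, standard error 0.13). KH.C4.146 was at 40.9, 73.0 and 68.2 CPM in the *Lhx3/4* libraries and 429, 534 and 425 CPM in the controls. KH.C12.306 was at 19.5, 27.3 and 30.01 CPM in the *Lhx3/4* libraries and 182, 233 and 236 CPM in the controls. As in the *UXS1* and *SBSPON* homologs, a minority of the control level was left in these 3 genes. In the 5 highest genes the means differed only 5.98- to 8.69-fold. KH.C9.701 was at 9.16, 22.5 and 11.2 CPM in the *Lhx3/4* libraries and 119, 293 and 149 CPM in the controls. Replicate 2 was about 2.5-fold above replicate 1 in both groups (2.46-fold among the *Lhx3/4* libraries and 2.47-fold among the controls). KH.C3.716 was at 18.0, 14.4 and 16.7 CPM in the *Lhx3/4* libraries and 181, 128 and 165 CPM in the controls, and there too the order of the replicates was the same in both groups. KH.C7.261 was at 7.88, 11.4 and 5.22 CPM in the *Lhx3/4* libraries and 170, 197 and 138 CPM in the controls, again with the same order. A further 2 genes combined a control mean of 100 CPM or more with a far deeper difference. KH.C1.222 was at 2.964, 4.38 and 5.03 CPM in the *Lhx3/4* libraries and 115, 183 and 226 CPM in the controls, a 42.3-fold difference of means. KH.C5.525 was at 1.94, 1.61 and 2.37 CPM in the *Lhx3/4* libraries and 79.5, 74.5 and 149 CPM in the controls, a 51.2-fold difference of means. In both of these genes replicate 3 was the highest library of each group.

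Among the genes with the deepest differences were 2 of which single reads remained. KH.L171.13 had 0, 1 and 0 reads in the *Lhx3/4* libraries, against 524, 1728 and 855 reads in the controls. From 1 read against 3107 the level was 3158-fold lower (95% exact binomial interval 566 to 124777, counting error only). Its controls were uneven, at 8.99, 27.6 and 12.4 CPM, but the lowest of them was still a clear signal. The 1 read came from *Lhx3/4* replicate 2, and without that library the fitted log2 fold change of KH.L171.13 was -13.04, against -11.22 with it, neither of which is a bound. KH.C2.476 had 0, 1 and 1 reads in the *Lhx3/4* libraries and 159, 162 and 157 reads in the controls, or 243-fold lower (interval 66.9 to 2012). This gene had the lowest control level of all members, at 2.73, 2.59 and 2.28 CPM, with controls that differed little. KH.L96.82 was at 0.266, 0.203 and 0 CPM in the *Lhx3/4* libraries and at 30.6, 28.9 and 31.1 CPM in the controls, 193-fold lower by the means. With the *PTF1A* homolog these were the 4 genes in which less than 1% of the control mean was left.

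The next genes in order of the ratio of highest *Lhx3/4* to lowest control library had some reads in most *Lhx3/4* libraries. KH.C8.406 was at 0.437, 0.347 and 0.126 CPM in the *Lhx3/4* libraries, against 16.6, 22.4 and 27.2 CPM in the controls. KH.XM_009861879.2 was at 0.152, 0.145 and 0.126 CPM in the *Lhx3/4* libraries, against 4.56, 7.07 and 6.09 CPM in the controls. The *Lhx3/4* libraries of the second of these genes were nearly equal, and those of the first were lowest in replicate 3. KH.C11.90 was at 0.152, 0 and 0.112 CPM in the *Lhx3/4* libraries, against 7.20, 3.83 and 11.0 CPM in the controls. KH.C2.249 was at 0.893, 0.116 and 0.590 CPM in the *Lhx3/4* libraries, against 26.1, 38.0 and 19.1 CPM in the controls. In 7 of the 69 genes at least 1 *Lhx3/4* library had no read, in none did all 3, and in 55 each *Lhx3/4* library had at least 10 reads.

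The members' models lay on many chromosomes and scaffolds, as far as the model names show. Chromosome names stood in 42 of the 69 IDs (60.9%, against 70.5% of the other genes of sufficient control level), KH.L scaffolds in 16 and KH.S scaffolds in 7, and 4 were RefSeq-like IDs (5.80%, against 1.30%). All chromosomes other than 13 were represented, by 1 to 6 members each. Scaffold names were shared by 2 pairs of members. One of them was KH.L87.21 and KH.L87.23. KH.L87.21 was at 0.418, 0 and 0.239 CPM in the *Lhx3/4* libraries, against 27.0, 13.03 and 7.14 CPM in the controls. KH.L87.23 was at 1.23, 0.289 and 0.618 CPM in the *Lhx3/4* libraries, against 24.10, 10.38 and 9.68 CPM in the controls. In both genes replicate 1 was the highest library of each group, replicate 2 was the lowest *Lhx3/4* library and replicate 3 the lowest control, and another model with this scaffold name, KH.L87.38, lay just outside the limit. Reads of near-identical or overlapping models cannot be told apart here.

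Genes on the 2 sides of each limit of the rule had close values. Just inside the limit of 0.2 for the ratio of highest *Lhx3/4* to lowest control level were KH.C6.217 (0.195), the *CRISPLD2* homolog KH.C6.28 (0.199) and the listed factor KH.L59.12 (0.199). KH.C6.217 was at 6.52, 7.67 and 7.49 CPM in the *Lhx3/4* libraries and 39.3, 52.5 and 42.9 CPM in the controls. Just outside it were KH.C4.248 (0.203), KH.S816.4 (0.203) and KH.L87.38 (0.206). KH.S816.4 shares its scaffold name with the member KH.S816.2, and its values were 4.01, 3.02 and 2.85 CPM in the *Lhx3/4* libraries and 34.6, 19.7 and 69.6 CPM in the controls. Just inside the limit of 2 CPM for the lowest control were KH.C2.476 (2.28 CPM), KH.S679.2 (2.50 CPM) and KH.L141.21 (2.64 CPM). KH.S679.2 was at 0.304, 0.116 and 0.253 CPM in the *Lhx3/4* libraries and 2.50, 2.67 and 2.68 CPM in the controls, and KH.L141.21 at 0.228, 0.506 and 0.239 CPM and 3.62, 5.97 and 2.64 CPM. Just outside it, with a ratio within the rule, were KH.S435.4 (1.82 CPM), KH.C12.211 (1.71 CPM) and KH.C5.642 (1.60 CPM). Of the 8 genes set aside by name, the 1 that did not meet the rule was KH.C12.469, at 82.3, 149 and 125 CPM in the *Lhx3/4* libraries and 472, 814 and 589 CPM in the controls.

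How evenly a gene was lowered varied between libraries. Among the 55 members with at least 10 reads in each *Lhx3/4* library, the highest *Lhx3/4* library exceeded the lowest by a median of 1.91-fold (range 1.08- to 10.97-fold). In the other genes of sufficient control level this median was 1.35-fold. The members were at lower levels there than most genes, and between 0.868 and 6.96 CPM, the middle range of the members in *Lhx3/4* libraries, the median was 1.68-fold for 27 members and 1.82-fold for 1103 other genes. Across the controls the highest library exceeded the lowest by a median of 1.55-fold in the 69 members and 1.43-fold in the other genes, and between 9.68 and 81.0 CPM by 1.58-fold and 1.44-fold. The rule limits the highest *Lhx3/4* library and the lowest control of the members but not of the other genes. Their spreads are therefore not selected alike, and no conclusion is drawn from these medians. In 18 members the controls spread by more than 2-fold, and in 3 by more than 3-fold. These 3 were KH.L87.21 (3.79-fold), KH.L142.14 (3.51-fold) and KH.L171.13 (3.07-fold).

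In 10 of the 55 members the *Lhx3/4* libraries spread by more than 3-fold, with the highest level in replicate 1 in 2 genes, in replicate 2 in 5 and in replicate 3 in 3. After the *CRISPLD2* homolog the widest spread was that of KH.C9.147, which was at 2.47, 13.4 and 1.52 CPM in the *Lhx3/4* libraries and 101, 156 and 77.1 CPM in the controls. Replicate 2 was the highest library of both groups, by 8.84-fold over the lowest among *Lhx3/4* libraries and 2.02-fold among controls. Without *Lhx3/4* replicate 2 the log2 fold change of KH.C9.147 was -5.90, against -4.29 with all libraries. Without that library the values were also farther from 0 in KH.S406.18 (-9.79, against -5.60, where 35 of 36 reads came from it), KH.L142.14 (-6.42, against -5.08), KH.L18.116 (-5.71, against -4.82) and KH.C4.592 (-5.43, against -4.71). Over the 69 members, the fitted fold change moved by more than its standard error in 9 genes without *Lhx3/4* replicate 2, in 4 without *Lhx3/4* replicate 1, in 2 without *Lhx3/4* replicate 3 and in 3 without control replicate 3. Shifts without another library were seen in KH.XM_009860833.2 without *Lhx3/4* replicate 1 (-4.39, against -3.78) and in the *GAS2* homolog KH.L152.12 without *Lhx3/4* replicate 3 (-4.42, against -3.73). KH.C4.592 was at 0.874, 1.58 and 0.295 CPM in the *Lhx3/4* libraries and 18.9, 20.8 and 29.98 CPM in the controls. KH.XM_009860833.2 was at 2.41, 0.680 and 1.14 CPM in the *Lhx3/4* libraries and 23.0, 16.2 and 15.8 CPM in the controls. In the first of these the library highest among controls (replicate 3) was the lowest among *Lhx3/4* libraries, and in the second replicate 1 was the highest of both groups.

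**Figure D4:**
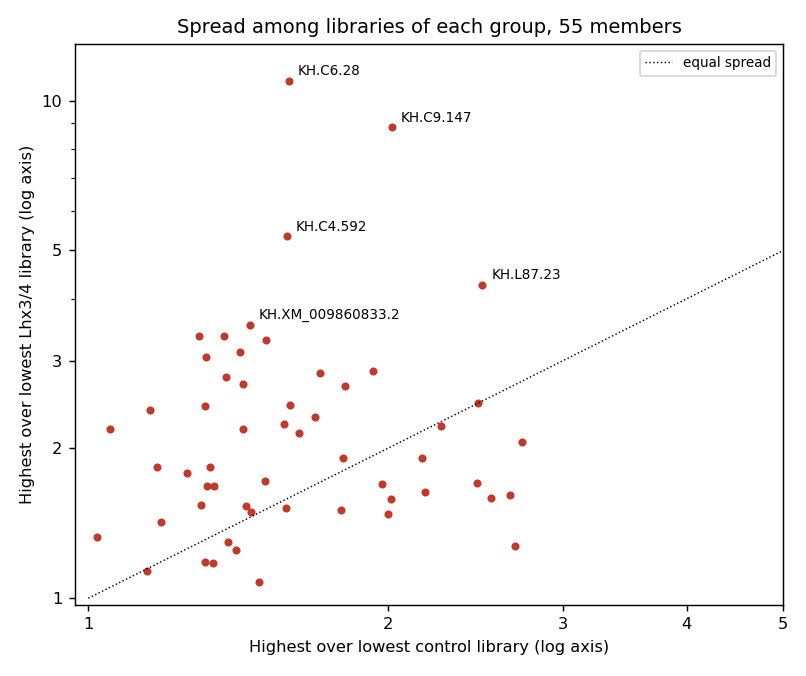
Highest over lowest CPM among the 3 *Lhx3/4* libraries (vertical axis, log scale) against the same ratio among the 3 controls (horizontal axis, log scale) for the 55 members with at least 10 reads in each *Lhx3/4* library. The dotted line marks equal spread, and the 5 genes of widest *Lhx3/4* spread are named, from 3.55-fold for KH.XM_009860833.2 to 10.97-fold for KH.C6.28.

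Libraries of the 2 groups with the same replicate number tended to be high together. In 35 of the 55 members (63.6%) the highest *Lhx3/4* library and the highest control carried the same number. In the other 10081 genes of sufficient control level this share was 63.9%. The highest control was replicate 1 in 23.2%, replicate 2 in 43.5% and replicate 3 in 33.3% of the 69 members, against 36.1%, 25.3% and 38.6% of the other genes. These shares are given as counts over genes of the same 6 libraries and were not tested.

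Since the rule takes the extreme library of each group, it was also applied to 5 libraries at a time and the library left out was then read. Without *Lhx3/4* replicate 1, 2 or 3 the rule chose 88, 94 and 82 genes, and without control replicate 1, 2 or 3 it chose 93, 78 and 92. Each of these sets held the same 69 members, as it must. The other genes of each set were those in which the library left out did not meet the rule. For an *Lhx3/4* library that was the 5-fold limit, and for a control the 5-fold limit or the limit of 2 CPM. KH.S435.4, for example, was under 2 CPM only in control replicate 1 (1.82 CPM). In the library left out, a difference of at least 2-fold was found in 86 of 88, 87 of 94 and 81 of 82 genes for the *Lhx3/4* libraries. For the controls it was found in 86 of 93, 78 of 78 and 91 of 92 genes. The library left out overlapped the other group in 1 of 94 genes for *Lhx3/4* replicate 2, in 2 of 93 for control replicate 1 and in none of the genes for the other 4 libraries. All these counts include the 69 members, for which the rule fixes the outcome, so they lend the members no support. Libraries of the 2 groups with the same number share some of their deviations, so the library left out is not fully independent of the others.

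Beside the transcription factors, members were counted on the study's other gene lists. On the list of the 1000 genes of highest expression in the controls, which the study chose on these same control libraries, were 5 members (7.25%, against 9.85% of the genes of sufficient control level). On the list of CPP genes of stage 21 were also 5 members (7.25%, against 13.3%), among them KH.C2.994 and the homologs of *S1PR1*, *LGR4* and *GAS2*. None of these 5 was among the 23 members at least 10-fold below the lowest control, and KH.C2.994 had the most expression left of all members. The list of neural tube closure genes held 1 member, the *CRISPLD2* homolog (1.45%, against 0.286%). In the copies of the lists used here, no member stood on that of cell polarity, actin and adhesion genes or on that of *Foxf* targets. Those lists held 75 and 21 genes of sufficient control level (0.739% and 0.207% of such genes), so few members or none would be found there at the same shares.

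The remaining 31 members, which no part of the naming rule picked out, were at 0.135 to 9.20 CPM in *Lhx3/4* cells and 3.50 to 96.4 CPM in controls (means of 3 libraries). Their ratios of means ran from 7.42 to 49.2 with a median of 12.7, and in 7 of them the ratio was above 20. The highest ratio was that of KH.S406.18, whose log2 fold change was -9.79 without *Lhx3/4* replicate 2 and -5.60 with it. The gene of this set with the highest control level was KH.C7.559, at 2.75, 3.04 and 4.14 CPM in the *Lhx3/4* libraries and 90.7, 71.0 and 127 CPM in the controls, and replicate 3 was its highest library in both groups. The gene with the most even controls was KH.C9.837, at 1.20, 1.14 and 1.52 CPM in the *Lhx3/4* libraries and 9.88, 10.1 and 9.98 CPM in the controls. Its controls differed by 1.02-fold, and 12.9% of the control mean was left. KH.C7.559 and KH.C9.837 were picked after their values were seen.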

How the data were processed

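The 6 libraries of sorted ANP cells (3 *Lhx3/4*, 3 control) were aligned by the authors to the ci3 assembly (HISAT2) and counted per KH2012 gene model with HTSeq, and raw counts were deposited for each library. The submitters' processing notes name FastQC, HISAT2, HTSeq and DESeq2. The version of each tool is not given in the sources used here, nor is the strand setting, and without strand the reads of a gene and of one overlapping it on the other strand are indistinguishable. The deposited table of the authors' own DESeq2 comparison was not used. The 5 HTSeq summary lines, 28.5% to 38.2% of all counts, were left out.

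CPM were computed on the total reads in genes, as the rule states. The 13641 genes whose reads summed to 100 or more were fitted with edgeR 4.0.16 (R 4.3.3, TMM factors 0.966 to 1.06, quasi-likelihood test), and called lower where the Benjamini-Hochberg adjusted p, taken over the whole table, was under 0.05 and the log2 fold change was negative and at least 0.58 in size. Standard errors of the edgeR fold changes were derived from the quasi-likelihood test. Each is the size of the log2 fold change divided by the square root of the test's F statistic. Fits were run on simulated data in which all libraries were independent. A first limit on how many simulated 10-fold lower genes edgeR should call was missed and then replaced, so nothing is read from that run. Alternatives were DESeq2 1.42.0, RLE size factors, no filter, the replicate number as a block, other limits of the rule and leaving out each library. Between groups, libraries of the same number deviated together from their group means (correlations of 0.549, 0.457 and 0.553 over 13641 genes, against -0.172 to -0.339 for different numbers), so the block treats equal numbers as pairs. This pairing is inferred from the counts, the labels being silent, and any p-value reflects only how far these libraries differ. Deviations from a group mean cancel within the group, so the negative correlations for different numbers follow in part from the positive ones.

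The members and lists were chosen with earlier results of these data known. Named with values were members with a paired homolog, the 10 of highest control mean, the 10 of lowest ratio of highest *Lhx3/4* to lowest control CPM, those on the transcription factor list, those with no read in any *Lhx3/4* library (0 genes), the 3 nearest each limit on both sides, those that share a KH.L or KH.S scaffold name, and the 5 of widest *Lhx3/4* spread. A ratio with 3 or fewer *Lhx3/4* reads has a 95% exact binomial interval, for counting error only. Homolog names come from the study's supplementary lists, and 3 members with conflicting names are given by ID. None of the member IDs matched the reference gene table (0), so no coordinates or sequences are given. One member that this rule names is not reported here.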

Additional observations from a re-analysis of the deposited data

How the results depend on the processing

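The number of genes chosen was 23 with a 10-fold limit, 141 with a 3-fold limit and 224 with group means in place of the extreme libraries, against 60 to 76 with TMM factors or a control minimum of 1 or 5 CPM and 78 to 94 without any one library. Over all genes, the 398 lower and 252 higher genes of edgeR were 947 and 644 under a block for the replicate number and 746 and 478 by DESeq2. Without any one library 246 to 426 genes were called lower (246 without control replicate 2, 265 without *Lhx3/4* replicate 3) and 147 to 305 higher (147 to 165 unless the library left out was control replicate 3). Of the members, 60 to 69 were called lower without any one library, and 69 in the paired fit with the block. The median log2 fold change of the members was -3.29 as a difference of mean log2 CPM with 0.5 added, and without the *UXS1* homolog their summed level averaged 415 CPM in *Lhx3/4* libraries and 4441 CPM in controls. Listed factors were 4.35% of the members at the 10-fold limit, with the genes set aside by name not counted. Of 621 fold changes of single members under the alternatives, 603 moved by less than their standard error, 18 moved by more and 0 changed sign, and all 18 were with a library left out. Members with few *Lhx3/4* reads are limited by depth, and a read or less per library cannot be told from no expression.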
